A study of Mus musculus with 4 samples.

Results

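Car1, Car2, Gata1, Klf1, Tal1, Epor, Zfpm1, Tfrc and Gfi1b are genes of early red cell development, and each was matched by its Ensembl gene ID to 1 row of the deposited FPKM table, so that 9 of 23552 listed genes were followed. These 9 were picked with the differences between SUV-OE and control cells in these libraries already known. Their differences between the groups are therefore given as a description, without a test, and nothing is supported with them.

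RNA-Seq covered c-Kit+ leukemic cells enriched from the bone marrow of moribund C57BL/6 mice carrying MLL-AF9-induced AML. The control group (2 libraries, replicates 3 and 4) carried the control-eGFP construct, and the SUV-OE group (2 libraries, replicates 2 and 3) carried Suv39h1-eGFP. All 4 libraries thus came from MLL-AF9 leukemia that had been transduced with an eGFP vector and transplanted into sublethally irradiated recipients, which keep blood cells of their own. The study's methods name young adult female mice. The labels give no age and do not say whether the libraries of a group came from separate mice, so a p-value measures only the spread between these libraries, which may be technical.

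Red cell progenitors are set on their path by a small group of DNA-binding proteins. GATA1 is the central activator of erythroid genes, FOG1 (encoded by Zfpm1) is its cofactor, TAL1 binds with it in a complex held together by LMO2 and LDB1, KLF1 activates the adult beta-globin gene and many membrane genes, and GFI1B is a repressor that acts with the demethylase LSD1. The erythropoietin receptor (Epor) carries the survival signal of these progenitors, the transferrin receptor (Tfrc) brings in iron, and the cytosolic carbonic anhydrases CA I and CA II (Car1 and Car2) convert carbon dioxide to bicarbonate. Car1 is widely used as a marker of early erythroid progenitors. Gata1, Tal1, Zfpm1 and Gfi1b also act in megakaryocytes, and Gata1 in mast cells, basophils and eosinophils.

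Of the 9 genes, 7 had an entry in the RefSeq promoter table for GRCm38.p6, and Car1 and Car2 had none. Tal1 and Tfrc had 2 start sites each, which gave 9 windows of the 250 bases before a start. The 4 windows that held a GATA word (AGATAN or TGATAN with A or G as N, on either strand) are shown, because these letters are the site that GATA1 and GATA2 recognise. Capitals mark the GATA words and each CACCC (either strand), the letters in the site of KLF1. GATA words and CACCC do not overlap in them, but the CACCC of Gfi1b shares its last base with an E-box (CANNTG, the core of a TAL1 site). The Klf1 stretch stops at 196 bases, where the GENCODE gene begins. The stretches are chr8:84901732-84901927 on the plus strand for Klf1, chr4:115056176-115056425 on the plus strand for Tal1, chr9:21963577-21963826 on the minus strand for Epor and chr2:28621983-28622232 on the minus strand for Gfi1b.
Klf1: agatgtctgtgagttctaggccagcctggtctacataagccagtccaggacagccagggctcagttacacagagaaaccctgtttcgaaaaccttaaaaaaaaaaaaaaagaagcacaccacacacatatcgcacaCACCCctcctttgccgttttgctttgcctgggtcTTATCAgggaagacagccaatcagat
Tal1: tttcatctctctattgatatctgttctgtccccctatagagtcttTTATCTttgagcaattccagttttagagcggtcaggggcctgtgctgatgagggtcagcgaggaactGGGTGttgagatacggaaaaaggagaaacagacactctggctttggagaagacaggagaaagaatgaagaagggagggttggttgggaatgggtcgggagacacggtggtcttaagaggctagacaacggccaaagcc
Epor: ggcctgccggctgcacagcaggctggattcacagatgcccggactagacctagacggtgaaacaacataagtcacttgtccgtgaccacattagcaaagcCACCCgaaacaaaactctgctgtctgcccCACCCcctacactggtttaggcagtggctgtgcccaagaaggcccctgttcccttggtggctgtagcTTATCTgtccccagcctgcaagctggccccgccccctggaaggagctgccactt
Gfi1b: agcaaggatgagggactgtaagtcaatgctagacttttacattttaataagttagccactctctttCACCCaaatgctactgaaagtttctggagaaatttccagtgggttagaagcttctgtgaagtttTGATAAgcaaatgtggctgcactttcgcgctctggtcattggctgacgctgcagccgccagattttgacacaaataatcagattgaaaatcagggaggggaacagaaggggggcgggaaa

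The first base of the GATA word lay 54 bases before the start in Epor, 80 in Klf1, 120 in Gfi1b and 205 in Tal1. Of all 32851 promoter windows of the same length, 26.5% held a GATA word, against 4 of the 9 windows here. CACCC was in 8 of the 9 windows and in 52.0% of all windows, and the E-box letters were in 5 of the 9 and in 66.2% of all windows. The windows of Gata1, Zfpm1 and Tfrc and the other window of Tal1 held no GATA word, which says only that these letters are not in these windows. A match is a description of the letters and was not tested against binding.

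The deposited values are FPKM, fragments scaled to the length of the exons and the depth of the library, and reads per gene were recovered from the steps between them. Recovered reads per library ranged from 19897535 to 23341140, and 3 reads on 1 kb of exons were worth an FPKM of 0.154 to 0.178. The targeted gene, Suv39h1, was at 12.4 FPKM in each of the control libraries, against 75.3 and 81.2 FPKM in SUV-OE. Kit, the gene of the sort marker, had 20.4 and 19.2 FPKM in control, against 28.6 and 25.4 FPKM in SUV-OE. The leukemia genes Hoxa9, Hoxa10 and Meis1 were expressed in each library, with an FPKM from 13.5 to 57.3. The 13736 genes that averaged 0.5 FPKM or more were compared by limma as log2(FPKM + 1). Calling a gene took an adjusted p-value (Benjamini-Hochberg) below 0.05 together with a log2 fold change of 1 or more in either direction. This scale understates the change of genes with low FPKM.

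Car1 and Car2 were the members with the highest FPKM gain. Car1 (ENSMUSG00000027556, chromosome 3, 14766216 to 14808368 in mm10, minus strand) had an FPKM of 4.57 and 2.28 in control replicates 3 and 4 and of 33.4 and 31.95 in SUV-OE replicates 2 and 3. Both SUV-OE libraries were far above both control libraries, and control replicate 3 was 2.01 times replicate 4. The mean FPKM was 3.43 ± 1.62 (SD, n = 2) in control and 32.7 ± 1.0004 (SD, n = 2) in SUV-OE, a ratio of 9.53. Car2 (ENSMUSG00000027562, chromosome 3, 14886273 to 14900770, plus strand) had 2.33 and 1.47 FPKM in control, against 15.9 and 18.4 FPKM in SUV-OE. The groups were again far apart, with a ratio of means of 9.01 and with ratios of single library pairs from 6.81 to 12.5. The log2 fold change on the log2(FPKM + 1) scale was 2.98 for Car1 and 2.66 for Car2.

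**Figure D1:**
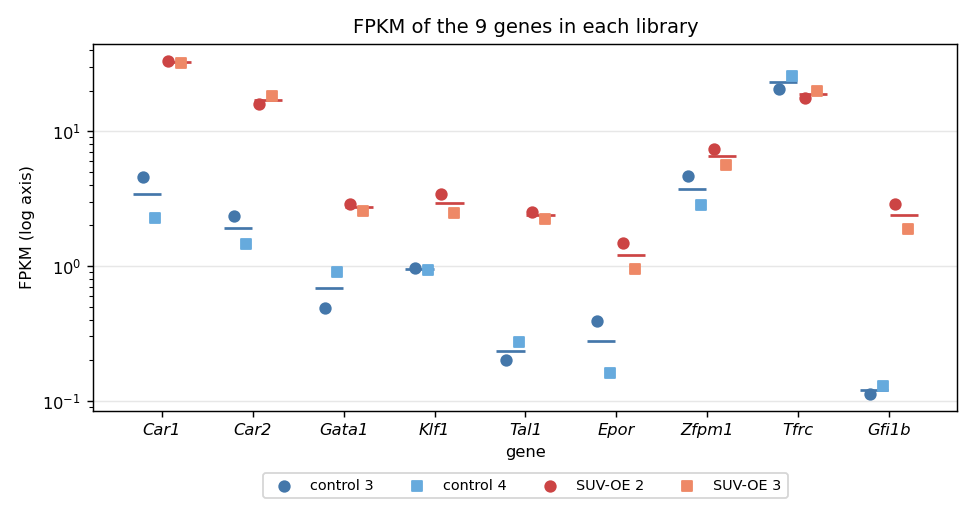
FPKM (log axis) of each of the 9 genes in the 4 libraries, with control in blue and SUV-OE in red, circles and squares for the replicates named in the legend and short lines for the group means (n = 2). The SUV-OE points lie above the control points in 8 genes and below them in Tfrc, where control was 20.5 and 25.5 and SUV-OE 17.7 and 19.8.

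Of the transcription factor genes, Gata1 (ENSMUSG00000031162, chromosome X, 7959260 to 7978071, minus strand) had 0.485 and 0.899 FPKM in control, against 2.89 and 2.56 FPKM in SUV-OE. Its control values rest on 23 and 37 recovered reads, and its SUV-OE values on 125 and 111. Its groups did not overlap, and the ratio of means was 3.94. Klf1 (ENSMUSG00000054191, chromosome 8, 84901928 to 84905291, plus strand) had 0.972 and 0.927 FPKM in control, against 3.42 and 2.46 FPKM in SUV-OE. Its control libraries were nearly equal while its SUV-OE libraries differed by 1.39 times, and the ratio of means was 3.09.

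Tal1 (ENSMUSG00000028717, chromosome 4, 115056426 to 115071755, plus strand) had 0.1996 and 0.271 FPKM in control, against 2.54 and 2.23 FPKM in SUV-OE, from 17 and 20 reads against 197 and 174. Its groups lay far apart, with a ratio of means of 10.1 and ratios of library pairs from 8.26 to 12.7. Gfi1b (ENSMUSG00000026815, chromosome 2, 28609450 to 28621982, minus strand) had 0.112 and 0.130 FPKM in control, against 2.86 and 1.87 FPKM in SUV-OE. Its ratio of means, 19.6, was the largest among the 9 genes, but it rests on 4 reads in each control library, and the 95% exact Poisson interval of 4 reads runs from 1.09 to 10.2. In SUV-OE, Gfi1b had 93 and 61 reads.

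Zfpm1 (ENSMUSG00000049577, chromosome 8, 122282141 to 122337251, plus strand) had 4.64 and 2.84 FPKM in control, against 7.38 and 5.60 FPKM in SUV-OE. The groups of this GATA1 cofactor did not overlap but came close, since the highest control and the lowest SUV-OE library differed by 1.21 times, less than the 1.63 times between the control libraries. Its ratio of means was 1.74. The log2 fold changes were 1.57 for Gfi1b, 1.45 for Tal1, 1.15 for Gata1, 1.003 for Klf1 and 0.68 for Zfpm1, and with a pseudocount of 0.1 in place of 1 they were 3.45, 2.90, 1.88, 1.51 and 0.81.

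The receptors differed from each other. Epor (ENSMUSG00000006235, chromosome 9, 21958897 to 21963506, minus strand) had 0.393 and 0.162 FPKM in control, from 14 and 5 reads, against 1.48 and 0.953 FPKM in SUV-OE, from 48 and 31 reads. Its groups did not overlap, but the ratios of library pairs spread from 2.42 to 9.13 around a ratio of means of 4.38. Tfrc (ENSMUSG00000022797, chromosome 16, 32608920 to 32632794, plus strand) had 20.5 and 25.5 FPKM in control, against 17.7 and 19.8 FPKM in SUV-OE, each from at least 1944 reads. Tfrc was the single member that was lower in both SUV-OE libraries, by a mean of 1.23 times, and the 1.24 times between its control libraries was as large. Its log2 fold change was -0.28, and that of Epor 0.79. All proliferating cells take up iron through this receptor, so Tfrc is not restricted to red cell progenitors.

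**Figure D2:**
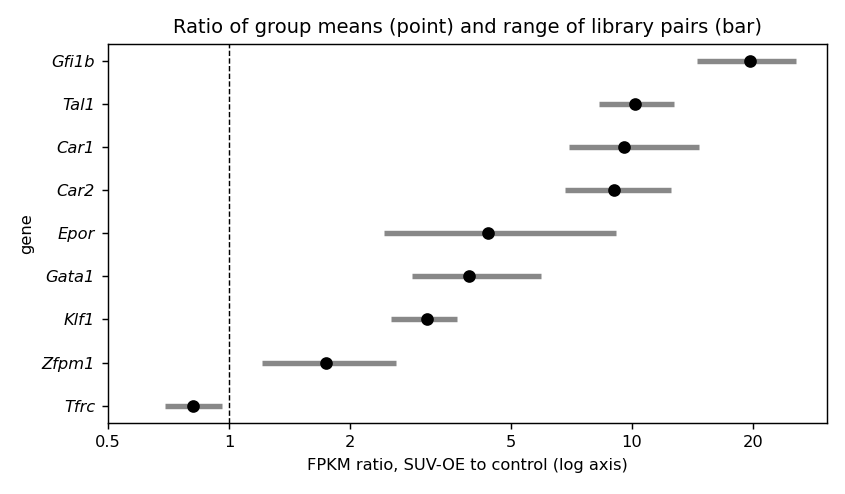
FPKM ratio of SUV-OE to control (log axis) for each gene, with the ratio of group means as a point and the range over the 4 pairs of 1 SUV-OE and 1 control library as a bar. Gfi1b, Tal1, Car1 and Car2 have ratios of means from 9.01 to 19.6, Zfpm1 is at 1.74 with a bar that begins at 1.21, and Tfrc is at 0.814.

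Both SUV-OE libraries were above both control libraries in 8 of the 9 genes and below in 1. Of all 13736 tested genes, 25.4% lay above in this way and 28.4% below. The median log2 fold change was 1.15 over the 9 genes and -0.02 over all tested genes, and for 6 of the 9 the log2 fold change was 1 or more, as it was for 2.95% of all tested genes (4.07% counting both directions). A ratio of mean FPKM over 5 was seen in 4 of the 9 and in 1.67% of all tested genes. The members were picked on this contrast, so nothing is read from these counts. All 9 passed the filter on low values, but Tal1, Epor and Gfi1b were under an FPKM of 0.5 in both control libraries and passed through SUV-OE alone. In bulk RNA, fewer cells of a type and less RNA in each cell cannot be told apart.

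**Figure D3:**
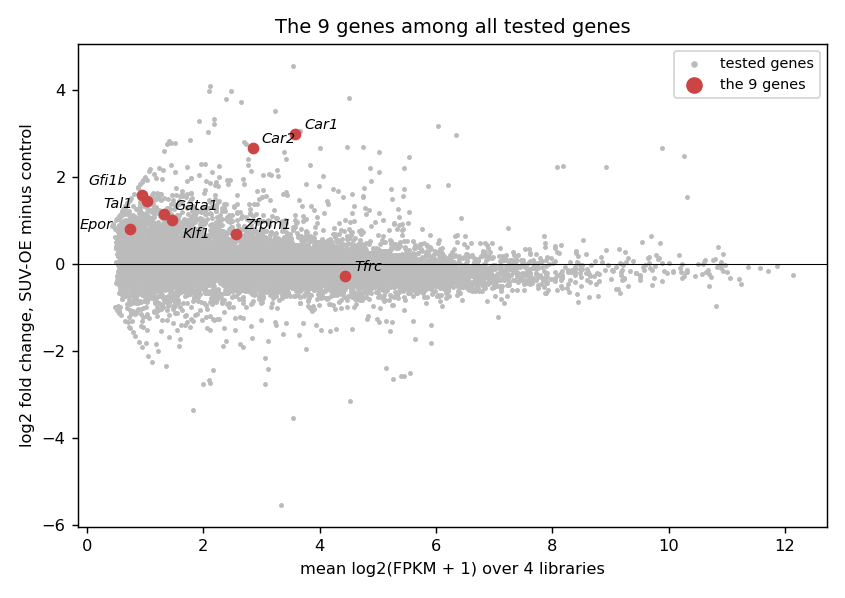
Log2 fold change (SUV-OE minus control) against the mean log2(FPKM + 1) over the 4 libraries for the 13736 tested genes in grey and the 9 genes in red. Car1 (2.98) and Car2 (2.66) lie high above the cloud, Epor and Zfpm1 lie at 0.79 and 0.68, and Tfrc lies just under 0 at -0.28.

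The order of the levels also differed between the groups. In control, Tfrc was the highest of the 9, followed by Zfpm1, Car1, Car2, Klf1, Gata1, Epor, Tal1 and Gfi1b. The neighbours Zfpm1 and Car1, Car1 and Car2, and Epor and Tal1 overlapped between libraries, and the other neighbours did not. In SUV-OE, Car1 was first, above Tfrc, and was followed by Tfrc, Car2, Zfpm1, Klf1, Gata1, Tal1, Gfi1b and Epor. There the libraries of Tfrc and Car2, of Klf1 and Gata1 and of Tal1 and Gfi1b overlapped. The members at an FPKM under 1 in both libraries numbered 5 in control (Gata1, Klf1, Tal1, Epor and Gfi1b) and 0 in SUV-OE.

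Within the groups, the replicates did not order the genes alike. Control replicate 3 was above replicate 4 in 5 genes (Car1, Car2, Klf1, Epor and Zfpm1) and below it in the other 4. SUV-OE replicate 2 was above replicate 3 in 7 genes, all but Car2 and Tfrc. The ratio of SUV-OE replicate 3 to 2 ran from 0.645 for Epor to 1.16 for Car2, and the ratio of control replicate 4 to 3 from 0.412 for Epor to 1.85 for Gata1.

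Car1 and Car2 lie in a cluster of carbonic anhydrase genes on chromosome 3, in the order Car13, Car1, Car3 and Car2 over 259 kb. Car13, another cytosolic isozyme that begins the cluster 103 kb from Car1, had 1.99 and 2.29 FPKM in control, against 0.858 and 0.905 FPKM in SUV-OE, so that it was lower while Car1 and Car2 were higher. The log2 fold change of Car13 was -0.74 (standard error, SE, 0.15 and adjusted p = 0.0995 by limma) and did not pass the test. Car3, an isozyme known from muscle and fat, lies between Car1 and Car2 and had 0.341 and 0.248 FPKM in control, against 0.826 and 0.766 FPKM in SUV-OE. For Car3 the log2 fold change was 0.47 (SE 0.17 and adjusted p = 0.219 by limma).

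**Figure D4:**
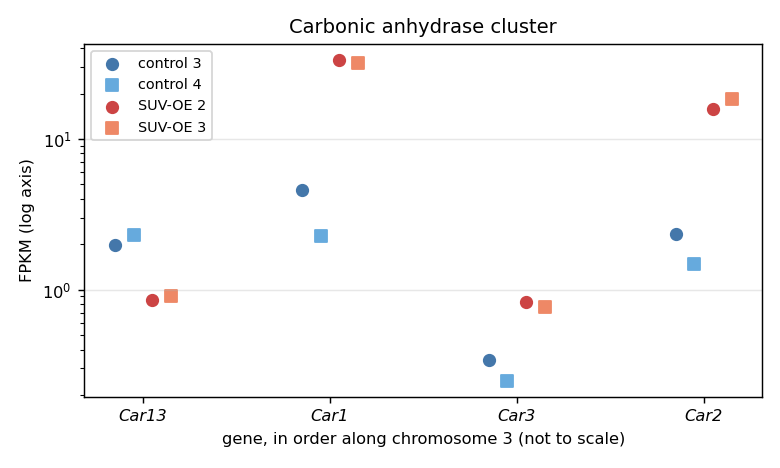
FPKM (log axis) of the 4 clustered carbonic anhydrase genes in their order along chromosome 3, with 1 point per library (control blue, SUV-OE red). Car1 and Car2 are higher in SUV-OE, Car3 is between 0.766 and 0.826 there, and Car13 is the one gene of the cluster that is lower.

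Of a list of 16 carbonic anhydrase genes, 12 were in the table. Besides Car1 and Car2, 4 were tested and 0 were called by limma, against 1.22% of all tested genes, and the median log2 fold change of these 4 was 0.26. Car9, the hypoxia-induced membrane isozyme, had the highest FPKM of the family outside the members, 7.497 and 8.13 FPKM in control, against 9.95 and 9.91 FPKM in SUV-OE, with a log2 fold change of 0.31 (SE 0.11 and adjusted p = 0.219 by limma). Car12, another membrane isozyme, had 3.07 and 4.17 FPKM in control, against 4.27 and 4.28 FPKM in SUV-OE. In the table, 6 other family genes were under the filter.

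The nearest protein-coding genes on each side of the members gave another view of where the differences lay. These neighbours were looked up after the members' values were seen. Of 17 such genes in the table, 13 were tested, 0 were called by limma, where 1.22% of all tested genes were, and 5 had an unadjusted p-value under 0.05, as did 20.7% of all tested genes. Their log2 fold changes ran from -0.74, that of Car13, to 0.56, that of Banp beside Zfpm1. The neighbours of Gata1 were Hdac6, with 6.80 and 5.52 FPKM in control, against 6.12 and 5.56 FPKM in SUV-OE, and Glod5, with 1.30 and 2.91 FPKM in control, against 2.76 and 2.01 FPKM in SUV-OE. Suv39h1 itself lies 83.1 kb beyond Gata1 on chromosome X, with 3 listed genes between them, Glod5 and the sparsely counted Gm7079 and Rpl22-ps1 (at most 8 reads in a library), which were not called. The reads of the endogenous gene and of the Suv39h1 vector cannot be told apart in this table. Dnase2a, a nuclease gene 3.27 kb from Klf1, was lower in SUV-OE, with 15.005 and 17.1 FPKM in control, against 10.5 and 9.44 FPKM in SUV-OE, and a log2 fold change of -0.63 (SE 0.13 and adjusted p = 0.0992 by limma).

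Of 25 partner and related factors of the GATA1 and TAL1 complexes besides the members, 23 were tested, Bcl11a and Gata3 being under the filter, and 0 were called in either direction by limma, against 1.22% of all tested genes. The untested Bcl11a had 0.0975 and 0.0540 FPKM in control, against 0.590 and 0.841 FPKM in SUV-OE, while Gata3 overlapped between the groups. Among these 23 genes, 15 were higher and 8 lower, the median log2 fold change was 0.07, and SUV-OE lay wholly above control in 7 and wholly below it in 5, against 25.4% and 28.4% of all tested genes. Lmo2, the bridging subunit, was the highest, with 252 and 254 FPKM in control, against 300 and 307 FPKM in SUV-OE. Gata2, the GATA factor of stem and progenitor cells, had 12.0 and 9.68 FPKM in control, against 20.02 and 16.8 FPKM in SUV-OE, with a log2 fold change of 0.72 (SE 0.16 and adjusted p = 0.113 by limma). In FPKM, a scale per length, Gata2 was above Gata1 in each of the 4 libraries. Runx1 (log2 fold change 0.77), Ssbp2 (0.79), which encodes a partner of LDB1, and Klf3 (0.50), a KLF1 target, also had groups that did not overlap, with limma adjusted p-values of 0.0872, 0.0910 and 0.173.

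In the erythropoietin receptor pathway, 11 of 15 listed genes besides Epor were tested and 0 were called by limma, against 1.22% of all tested genes. Their median log2 fold change was 0.11, with 6 genes higher and 5 lower. Counted without the filter, 6 of the 15 lay above control in both SUV-OE libraries and 2 below, where 25.7% and 21.9% of all listed genes did. Socs2, Socs3 and Cish, which were under the filter, were among those above. Pim1, a kinase gene induced by STAT5, had 8.75 and 6.92 FPKM in control, against 16.1 and 15.9 FPKM in SUV-OE, at a log2 fold change of 0.95 (SE 0.14 and adjusted p = 0.0646 by limma). Stat5b and Gab1 had log2 fold changes of 0.45 and 0.59, and Pik3r1, which encodes a regulatory subunit of PI3K, had -0.42, none of them called. Ptpn6, the phosphatase SHP-1 that dampens this receptor, was the highest of the list and had an FPKM from 100 to 105 in the 4 libraries.

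Of 18 genes for iron uptake and storage besides Tfrc, 15 were tested and 0 were called by limma, again against 1.22% of all, with 8 higher, 7 lower and a median log2 fold change of 0.02. Ncoa4, whose product delivers ferritin for breakdown, had 80.4 and 84.0 FPKM in control, against 46.5 and 51.7 FPKM in SUV-OE (log2 fold change -0.73, SE 0.13 and adjusted p = 0.0797 by limma). Tfr2, the second transferrin receptor, had 1.85 and 2.10 FPKM in control, against 3.08 and 2.40 FPKM in SUV-OE, a direction opposite to that of Tfrc. Hfe and Ftl1 had log2 fold changes of -0.48 and -0.39 and were not called.

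Of 18 listed genes of the red cell membrane and surface, 12 were tested, 2 were called up and 0 down by limma, where 0.815% of all tested genes were called up and 0.408% down. All 12 had a positive log2 fold change, with a median of 0.93, and for 9 the SUV-OE libraries did not reach down to control. The filter lets low genes in through the group where they are high, so the 18 were also counted without it, and 15 lay above control in both SUV-OE libraries and 0 below, where 25.7% and 21.9% of all listed genes did. The called genes were Aqp1, the water channel, and Ermap, a surface protein of the Scianna blood group. Aqp1 had 1.02 and 0.744 FPKM in control, against 7.42 and 6.17 FPKM in SUV-OE (log2 fold change 2.05, SE 0.16 and adjusted p = 0.0253 by limma). Ermap had 0.311 and 0.168 FPKM in control, against 2.63 and 2.14 FPKM in SUV-OE (log2 fold change 1.45, SE 0.17 and adjusted p = 0.0434 by limma). Ermap was under 0.5 FPKM in both control libraries and passed the filter through SUV-OE alone. It was not called with a pseudocount of 0.1 or after quantile normalization, where Aqp1 still was. With no filter neither gene was called.

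Slc14a1, the urea transporter of the red cell, had a log2 fold change of 1.08 (limma adjusted p = 0.0870). Epb41, the most abundant of the list, encodes protein 4.1 of the membrane skeleton in many cell types and had 15.7 and 12.2 FPKM in control, against 14.3 and 13.7 FPKM in SUV-OE. With any 1 of the 4 libraries left out, limma called 0 of all tested genes, Suv39h1 included, and the log2 fold changes stayed between 1.93 and 2.17 for Aqp1 and between 1.35 and 1.55 for Ermap. By limma-voom on the recovered reads, 10 of these genes were called up, where 3.57% of the 14274 genes in that fit were, among them Kel, Sptb, Ank1, Add2, Slc14a1 and Tspan33 besides Aqp1 and Ermap.

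Of 12 erythroid maturation genes in the table, 7 were tested and 0 were called by limma, against 1.22% of all tested genes. The median log2 fold change of the 7 was 0.66, and of the 12, 10 lay above control in both SUV-OE libraries and 2 below, where 25.7% and 21.9% of all listed genes did. Hemgn, Cldn13 and Samd14 had control means under 0.5 FPKM and passed the filter only through SUV-OE, so nothing is read from this median. Hemgn, a nuclear protein of red cell precursors, had 0.0819 and 0.307 FPKM in control, against 2.18 and 1.75 FPKM in SUV-OE (log2 fold change 1.31, limma adjusted p = 0.0613). Cldn13, Samd14 and Tmcc2 had log2 fold changes of 1.49, 0.97 and 0.66 (limma adjusted p = 0.0778, 0.0780 and 0.113), and Bnip3l, which clears mitochondria from maturing red cells, had -0.24. By limma-voom, 5 genes of this list were called, against 4.67% of all genes in that fit.

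The globin genes did not share the pattern of the members. Hba-a1 had 5.06 and 47.7 FPKM in control, against 35.8 and 23.1 FPKM in SUV-OE, so that control replicate 4 was 9.41 times replicate 3 and above both SUV-OE libraries. Hbb-bs had 5.24 and 63.2 FPKM in control, against 38.9 and 28.7 FPKM in SUV-OE. Alas2, the erythroid enzyme that starts heme synthesis, had 0.321 and 1.28 FPKM in control, against 1.01 and 1.08 FPKM in SUV-OE. For Hba-a1, a log2 fold change of 0.80 over the 4 libraries became -0.71 without control replicate 3, so no direction is given for it. Hba-a1 and Hba-a2 are near-identical copies, so their separate values are uncertain. In the same control replicate 4, Car1, Car2, Epor and Zfpm1 were lower than in replicate 3, and Gata1 was higher by 1.85 times, far less than the globins. None of 13 tested genes for hemoglobin and heme synthesis was called by limma, against 1.22% of all tested genes. Of the enzymes of heme synthesis, Fech, the last step, had 62.4 and 47.4 FPKM in control, against 23.2 and 19.5 FPKM in SUV-OE (log2 fold change -1.31, limma adjusted p = 0.0576), and Cpox had a log2 fold change of 0.63. Fech was called down by limma-voom, as were 1.1% of all genes in that fit.

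**Figure D5:**
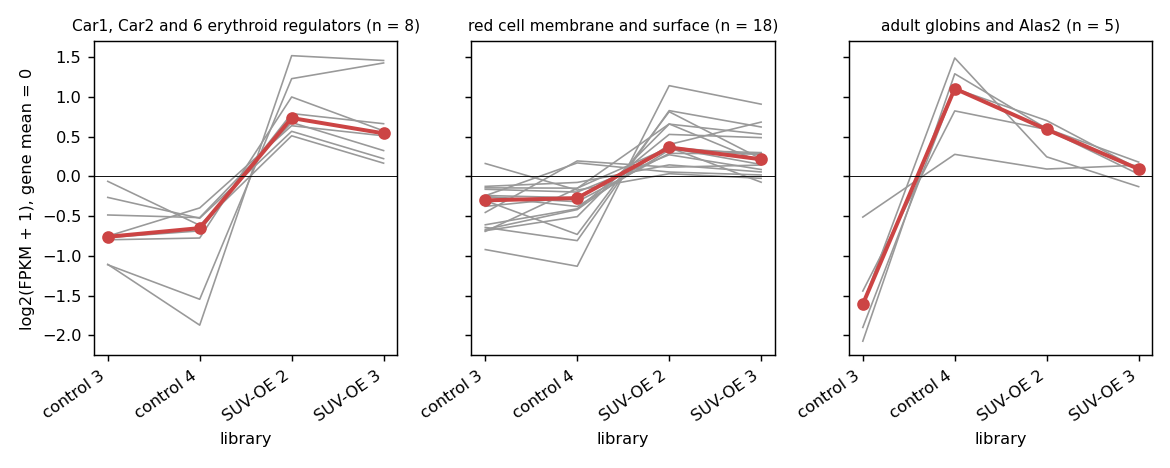
Log2(FPKM + 1) in the 4 libraries, set to a mean of 0 for each gene (grey lines) with the median in red, for Car1, Car2 and 6 erythroid regulators (8 genes, all members but Tfrc), for 18 red cell membrane and surface genes and for 4 adult globin genes with Alas2. The medians of the first 2 panels step up between control and SUV-OE, though Epb41, Icam4 and Rhd in the second overlap between the groups. The globins and Alas2 are lowest in control replicate 3 and highest in control replicate 4.

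Markers of other cell types were counted in the same libraries. Of 15 megakaryocyte genes, 11 lay above control in both SUV-OE libraries and 0 below, where 25.7% and 21.9% of all listed genes did, and their sum was 13.6 and 20.8 FPKM in control, against 41.7 and 44.4 FPKM in SUV-OE. Of the 8 tested, 1 was called up by limma, Itgb3, which encodes integrin beta 3, as were Ltf among 14 tested neutrophil genes and Pecam1 among 2 tested endothelial genes, against 0.815% of all tested genes. The 13 mast cell, basophil and eosinophil genes summed to 112 and 196 in control and to 264 and 206 in SUV-OE, and 9 lay above and 2 below. Fcer1a, which encodes a subunit of the IgE receptor, had 0 reads in both control libraries and 2 and 1 in SUV-OE, within the floor of 3 reads. The 14 neutrophil genes summed to 5678 and 7935 against 10127 and 12348.5, the 10 B-lymphoid genes to 18.6 and 28.1 against 43.9 and 106, and the 14 monocyte and macrophage genes to 445 and 730 against 435 and 473. Above control in both SUV-OE libraries lay 10 of the 14 neutrophil, 8 of the 10 B-lymphoid and 10 of the 14 monocyte and macrophage genes, and 3, 0 and 2 lay below. For the monocyte and macrophage genes the median log2 fold change of the 12 tested was 0.41, while their sum was not higher. Most of that sum came from Ly6c2, which was lower, with 281 and 545 FPKM in control, against 229 and 269 FPKM in SUV-OE. The 9 endothelial genes summed to 18.0 and 25.4 against 73.8 and 66.9, with most of the sum from Pecam1, which blood cells also express, and 8 of the 9 lay above and 0 below. By limma-voom, where 3.57% of all genes in that fit were called up, more markers were called. They were Itga2b, Ppbp, Selp, Treml1 and Vwf of megakaryocytes, besides Itgb3, and Camp, Cxcr2, Lcn2, Mmp9, Ngp and S100a9 of neutrophils, besides Ltf. Cd79a, Dntt, Pax5, Rag1 and Vpreb1 of B-lymphoid cells, Ccr2 and Timd4 of monocytes and macrophages, and Cpa3 of mast cells were called too. With a pseudocount of 0.1, limma did not call Ltf. The part of these cell types in the values of Car1, Car2 and the regulators was not tested.

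Over the 4 libraries, the genes whose profile was closest to a member were found by the Euclidean distance between log2(FPKM + 1) values centred on each gene's mean. With only 4 libraries, this distance mostly follows the size of the difference between the groups, on which the members were picked. Nothing is read from it. Closest to Car1 were Otogl (distance 0.346), Car2 (0.437) and Fbp1 (0.550). Closest to Car2 were Fbp1 (0.224), Otogl (0.318) and Suv39h1 (0.330), the overexpressed gene. Fbp1, which encodes a gluconeogenic enzyme, had 10.1 and 9.16 FPKM in control, against 64.7 and 69.4 FPKM in SUV-OE. Closest to Gata1 were Ffar2 (0.0736), Fcna (0.0754) and Jph3 (0.102), of which Ffar2, a fatty acid receptor, had 2.16 and 3.29 FPKM in control, against 7.25 and 6.69 FPKM in SUV-OE.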

How the data were processed

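RNA-Seq was analysed in 2 control and 2 SUV-OE libraries of c-Kit+ AML cells. The authors used the TruSeq RNA v2 kit, which does not mark strand, and mapped paired-end reads with TopHat2 to mm10. The submitters' processing notes also name CASAVA 1.8. The deposited values are the FPKM of each gene in each library, made by the authors with Cufflinks according to their methods, although most values are whole reads over the full exon length, which leaves the counting tool uncertain. The annotation and other versions are not given in the sources used here. Since the authors' DEG test, DESeq2, needs counts, limma 3.58.1 in R 4.3.3 was used on log2(FPKM + 1) with an intensity trend, for genes that averaged 0.5 FPKM or more.

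The members, gene lists and tests were chosen with earlier results of these data known. Named genes were the 9 members, Suv39h1, Kit, Hba-a1, Alas2, the called genes of each pathway list, up to 4 of its genes with the largest fold changes among non-overlapping ones, its most abundant gene and the 3 closest profiles of Car1, Car2 and Gata1. Other genes were named after their values were seen. Some genes under this rule are not reported here.

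Symbols, positions and exon lengths came from GENCODE M21 (mm10), which lacked 114 of the IDs. Reads were recovered as whole multiples of 1 step per library (tolerance 0.01), for 18498 genes (78.5%) at the GENCODE exon length and for 4872 at another, among them Klf1 and Epor. Poisson intervals and the FPKM of 3 reads cover only counting error. The fit was tested on simulated data. Alternatives were a pseudocount of 0.1, median-of-ratios scaling, no filter, a filter at a mean FPKM of 1, no trend, quantile normalization, limma-voom on recovered reads (mean of at least 10) and leaving out each library. Promoters are RefSeq windows of GRCm38.p6. Figures were drawn with matplotlib 3.10.9.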

Additional observations from a re-analysis of the deposited data

How the results depend on the processing

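No paired analysis was possible because control (3 and 4) and SUV-OE (2 and 3) have only 1 number in common. Over all tested genes there were 168 DEGs, against 0 with no filter (4177 genes with an unadjusted p-value under 0.05) and 666 by limma-voom on recovered reads (509 up and 157 down, against 112 and 56). The cause was not tested. With each library left out in turn, limma gave from 0 to 0 DEGs, Suv39h1 (adjusted p from 0.0877 to 0.189) not among them, with 1146 to 3895 genes at an unadjusted p-value under 0.05, and the lone library was assumed to vary like the other group. Of the red cell membrane and surface genes, 2 were called, against 1 with a pseudocount of 0.1, 1 after quantile normalization, 0 with no filter, from 0 to 0 with a library left out and 10 by limma-voom. limma-voom also called 2 GATA and TAL1 partner factors (Bcl11a and Ssbp2), 2 erythropoietin receptor signaling genes (Pim1 and Socs2), 1 hemoglobin and heme synthesis gene and 5 erythroid maturation genes. In the reported fit 0 of each were called, but Bcl11a, Socs2 and the maturation gene Sphk1 were under its filter and not tested. The fit without the intensity trend called 1 erythroid maturation gene (Hemgn). Among the 55 other genes recomputed under the alternatives, the direction reversed for Epb41 (0.01 as reported, -0.0016 with median-of-ratios scaling, and from -0.16 without control replicate 4 to 0.18 without control replicate 3, with -0.02 without SUV-OE replicate 2) and Ptpn6 (0.16 after quantile normalization). Leaving out a control library moved genes whose control replicates differ from each other. Without control replicate 3 and without control replicate 4, the log2 fold change was -0.71 and 2.30 for Hba-a1, -1.43 and 1.67 for Hba-a2 (-0.07 without SUV-OE replicate 2), -0.90 and 2.46 for Hbb-bs, -0.16 and 0.63 for Alas2, -0.22 and 0.55 for Glod5, and 0.068 and -0.19 for Hdac6. All 89 values of the 9 members kept their direction, but no member's groups overlapped, so leaving out a library could not reverse it. Of the 89 values, 13 differed from the reported one by at least the pooled SD within groups. With a library left out, Tfrc ranged from -0.43 to -0.13 and Zfpm1 from 0.40 to 0.95 on the log2 scale. With 4 or 5 reads in a control library, the ratios of Gfi1b and Epor are limited by depth.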
